A study of Mus musculus with 81 samples.

Results

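Neutrophils of A/J and C57BL/6J mice were compared with 7 of the 81 arrays of a strain survey of gene expression. The arrays were chosen by their titles alone, 2 for A/J and 5 for C57BL/6J, and no measured value entered the choice. Each array held total RNA from granulocytes sorted as CD11b+ Ly6G+ from the bone marrow of male mice aged 6 weeks, pooled from 2 to 3 animals, and hybridised to an Affymetrix ST1.0 array. Both strains are inbred and untreated, and the design text calls the pools biological replicates. The remaining 74 arrays fell into 38 groups, 5 of which (10 arrays) carried a title that disagreed with the strain label and were kept under their titles.

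Neutrophils are short-lived phagocytes that leave the marrow filled with granules of proteases, lactoferrin and antimicrobial peptides. They divide only as early precursors, and then mature as non-dividing cells that respond to bacterial peptides, complement and interferon. A/J and C57BL/6J are classic parents of genetic crosses. A/J is known for susceptibility to Legionella through Naip5, for a deficiency of complement C5 and for a duplication that includes Glo1, and C57BL/6J for a deletion within Nnt.

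Neutrophil markers were high in both strains. The 11 neutrophil markers averaged 13.40 and 13.39 on the A/J arrays and 13.31 to 13.37 on the C57BL/6J arrays, on a log2 intensity scale on which all levels here are given. Ly6g, the surface protein used in the sort, was at 13.82 and 13.79 in A/J and 13.55 to 13.66 in C57BL/6J. It was called higher in A/J by limma with Benjamini-Hochberg adjustment (difference 0.20, SE 0.06, adjusted p = 0.0115), but not without either A/J array (adjusted p = 0.13 without array 1 and 0.11 without array 2), and the other called marker was Camp. Over all probe sets the A/J arrays correlated with each other at r = 0.9917, the C57BL/6J arrays at 0.9905 to 0.9963, and the strains with each other at 0.9752 to 0.9872. The array closest to C57BL/6J array 1 was one titled C57BR, and the other 6 arrays were closest to one of their own strain.

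Markers of other cells are set here beside the 11.4% of all probe sets that were called. Most of these lists averaged under 7, and of probe sets with a mean under 7, 6.09% were called. Lists of 4 to 8 genes are too short for such counts to show that the strains were alike. No measured marker of B cells (8), erythroid cells (4), megakaryocytes (4) or dendritic cells (6) was called, and 1 of 6 eosinophil markers (Prg2), 1 of 8 basophil and mast cell markers (Hdc) and 1 of 7 progenitor markers (Hlf) were. Without A/J array 2 the adjusted p was 0.0511 for Hdc and 0.437 for Hlf. Summed intensities of the basophil and mast cell markers were 3608 and 3555 in A/J and 4253 to 5052 in C57BL/6J. Most of each sum was Hdc, which makes histamine, and the other 7 markers were not called. The gap in the sums therefore speaks for Hdc and not for the list. For the 7 progenitor markers the sums were 824 and 773 in A/J and 729 to 867 in C57BL/6J, so the groups overlapped. For the 9 T and NK cell markers the sums were 1758 and 1729 against 567 to 636, with Cd3d the main contributor. On this array no marker reads 0, and Cd3e, a defining T cell chain, lay at 7.06 and 7.07 in A/J and 6.75 to 7.17 in C57BL/6J, which overlapped. Because these are bulk samples, fewer cells of a type and less RNA per cell cannot be told apart.

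Of 24922 probe sets, 2840 (11.4%) differed between A/J and C57BL/6J at an adjusted p under 0.05 in limma, 1463 higher in A/J (5.87%) and 1377 lower (5.53%). A difference of at least 2-fold was called for 527 (2.11%), with 365 higher (1.46%) and 162 lower (0.65%), and 21 differed at least 8-fold. The median difference over all probe sets was 0.02. With 2 arrays in A/J the count leaned on each of them: 1053 probe sets were called without A/J array 2 and 2159 without A/J array 1. By gene, taking the brightest probe set of each of 19752 genes, 179 were 2-fold higher in A/J and 117 lower. Probe sets that the annotation assigns to several genes were mostly higher, 104 of the 113 2-fold calls among them, so counts of genes are used from here on where possible. The probes follow the C57BL/6J reference sequence, and a variant under a probe can lower the A/J signal without a change of transcript, which was not tested.

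**Figure D1:**
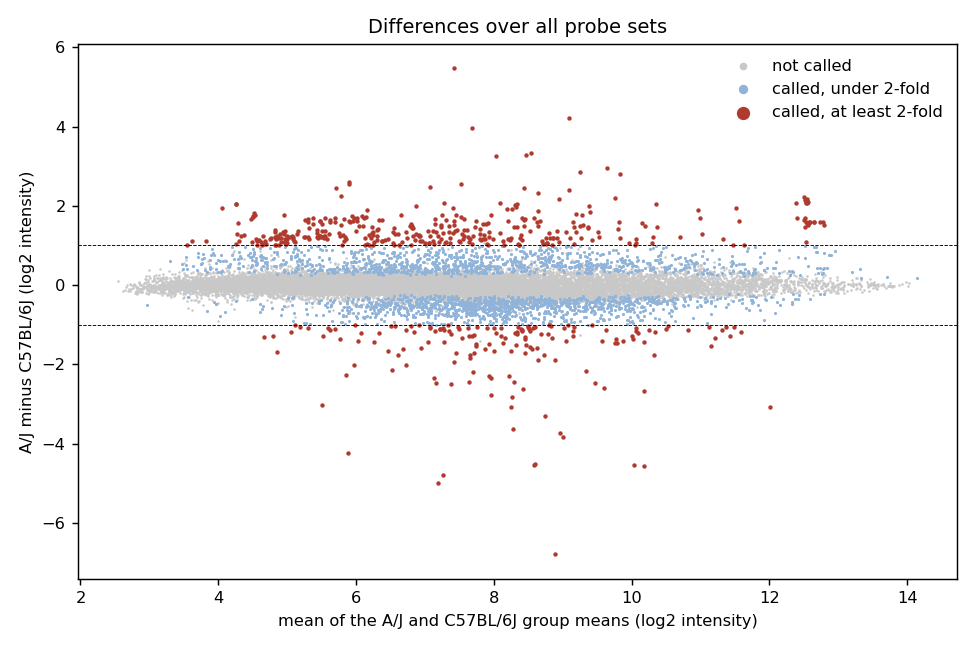
Difference between A/J and C57BL/6J (vertical axis, log2 intensity) against the mean of both group means (horizontal axis, log2 intensity) for 24922 probe sets; grey points were not called, blue points were called under 2-fold and red points were called at 2-fold or more, with dashed lines at differences of 1 and -1. Red points are spread over all levels, with 365 above the upper line and 162 below the lower one.

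Among the largest reductions in A/J were those of tripartite-motif genes of one chromosomal cluster, whose members include interferon-inducible antiviral factors. Trim30d was at 4.57 and 4.80 on the A/J arrays and at 9.73, 9.42, 9.81, 9.56 and 9.86 on the C57BL/6J arrays. The A/J arrays lay below the median of all their probe sets (6.70 and 6.76) and the C57BL/6J arrays far above it, a 31.8-fold difference (difference -4.99, SE 0.18, adjusted p = 1.16e-27). Its neighbour Trim12a was at 6.40 and 6.28 on the A/J arrays and at 11.07, 10.72, 10.91, 10.92 and 10.71 on the C57BL/6J arrays. Again no array overlapped (difference -4.52, SE 0.15, adjusted p = 1.98e-29). Trim30a, which restrains NF-kappaB signalling, was lower by a smaller margin at 10.32 and 10.18 in A/J and 11.31 to 11.46 in C57BL/6J (difference -1.12, SE 0.12, adjusted p = 2.11e-10). Trim12c, a close paralogue of Trim12a, was at 10.03 and 9.57 in A/J and 8.93 to 9.58 in C57BL/6J and was not called (difference 0.43, SE 0.20, adjusted p = 0.188). Of 7 measured genes of the cluster, 4 were called lower, against 5.53% of all probe sets, and 0 higher, with a median of -0.37. In the wider panel, 24 of the other 38 groups lay nearer to the A/J level of Trim30d and 25 to that of Trim12a. Transcripts of close paralogues can bind the same probes, so the split within the cluster is less certain than its total.

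The interferon-stimulated genes that were called were all lower in A/J, each by less than 2-fold. These genes encode the sensors, oligoadenylate synthetases and tetratricopeptide proteins that cells raise in response to type I interferon. Of 23 measured, 10 were called lower and 0 higher, against 5.53% of all probe sets called lower, and their median difference was -0.28. The list averaged 8.51 and 8.50 on the A/J arrays and 8.62 to 9.06 on the C57BL/6J arrays. In the panel A/J ranked 21 and C57BL/6J 10 of 40 groups from the top. The median of the other 38 groups was 8.52, so A/J lay in mid-panel and C57BL/6J above it. Rtp4, a transmembrane chaperone, was at 9.49 and 9.40 on the A/J arrays and at 10.30, 10.35, 10.59, 10.44 and 10.45 on the C57BL/6J arrays (difference -0.98, SE 0.25, adjusted p = 0.0049). Oas3, an activator of RNase L chosen here after its values were seen, was at 9.90 and 9.96 on the A/J arrays and at 10.56, 10.73, 10.77, 10.85 and 10.83 on the C57BL/6J arrays (difference -0.82, SE 0.16, adjusted p = 0.000151). The nucleic acid sensor Zbp1 was at 7.78 and 7.73 in A/J and 8.26 to 8.76 in C57BL/6J (difference -0.84, SE 0.19, adjusted p = 0.00155). Rsad2, or viperin, was at 9.08 and 9.24 in A/J and 9.73 to 10.34 in C57BL/6J (difference -0.88, SE 0.23, adjusted p = 0.00515), and Ifit3 at 7.30 and 7.69 in A/J and 7.98 to 8.94 in C57BL/6J (difference -0.97, SE 0.30, adjusted p = 0.027). None of these 5 genes overlapped between strains. Except for Oas3, they were named for the largest differences of the list, so their lack of overlap does not stand for it. The arrays were apart for 11 of the 23 genes, and for 6474 of all 24922 probe sets. The calls depended on single arrays: 2 of the 23 genes were called without A/J array 2 and 6 without A/J array 1. Without A/J array 2 the adjusted p was 0.116 for Rtp4, 0.0575 for Zbp1, 0.0526 for Rsad2 and 0.0983 for Ifit3. Without A/J array 1 it was 0.0899 for Rsad2 and 0.278 for Ifit3, and Ifit3 was also not called without C57BL/6J array 3 (0.061) or array 4 (0.0768).

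Members of the Ifi200 family, interferon-inducible proteins with a DNA-binding HIN domain, included 4 lower calls. Of 8 measured, 4 were lower in A/J, against 5.53% of all probe sets, and 0 higher, with a median of -0.44. Ifi207 was the one past 2-fold, at 5.60 and 5.31 on the A/J arrays and at 7.12, 7.35, 8.04, 8.15 and 7.36 on the C57BL/6J arrays (difference -2.15, SE 0.21, adjusted p = 3.89e-11). Ifi208 stood at 4.90 and 4.69 in A/J and 5.22 to 6.22 in C57BL/6J (difference -0.95, SE 0.22, adjusted p = 0.00167) and Ifi209 at 3.85 and 3.66 in A/J and 4.24 to 4.76 in C57BL/6J (difference -0.67, SE 0.16, adjusted p = 0.00213). These 2 genes were dim, on every array of both strains below the median of all its probe sets (6.63 to 6.78). The cytosolic DNA sensor Aim2 was at 7.89 and 7.51 in A/J and 7.84 to 8.65 in C57BL/6J, so its arrays overlapped (difference -0.56, SE 0.16, adjusted p = 0.0117). Without A/J array 2, Ifi208 (adjusted p = 0.0977), Ifi209 (0.131) and Aim2 (0.513) were not called.

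The regions just before the start of these genes are shown because interferon-inducible genes are known to carry the interferon response element there. A script searched the 250 bases before each RefSeq start (GRCm38.p6, the C57BL/6J reference, so A/J variants are not shown) for the letters GAAA, any 2 bases and GAAA again, on both strands. It was found for 5 of 8 Ifi200 genes (62.5%), 3 of 7 Trim genes (42.9%) and 6 of the 15 interferon-stimulated genes with a promoter entry (40%), against 3.46% of 27025 genes. Capitals mark the match, which for Trim30d and Rsad2 is on the reverse strand.
Trim30d, chr7:104507850-104508099, minus strand: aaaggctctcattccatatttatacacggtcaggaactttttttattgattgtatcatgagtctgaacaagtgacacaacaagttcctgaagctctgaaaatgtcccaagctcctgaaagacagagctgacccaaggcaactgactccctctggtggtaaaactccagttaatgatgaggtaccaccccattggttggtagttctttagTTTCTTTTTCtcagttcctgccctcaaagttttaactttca
Ifi207, chr1:173741810-173742059, minus strand: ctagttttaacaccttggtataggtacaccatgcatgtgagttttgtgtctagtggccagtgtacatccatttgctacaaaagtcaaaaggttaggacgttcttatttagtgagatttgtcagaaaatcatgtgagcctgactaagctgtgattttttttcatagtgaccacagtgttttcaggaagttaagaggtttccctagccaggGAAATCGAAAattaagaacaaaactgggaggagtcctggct
Rsad2, chr12:26456453-26456702, minus strand: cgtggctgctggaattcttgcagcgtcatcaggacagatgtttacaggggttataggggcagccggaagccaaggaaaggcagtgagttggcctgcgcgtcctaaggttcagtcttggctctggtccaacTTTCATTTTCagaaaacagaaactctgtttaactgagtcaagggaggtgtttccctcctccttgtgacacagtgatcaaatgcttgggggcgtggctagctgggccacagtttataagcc
Oas3, chr5:120777660-120777909, minus strand: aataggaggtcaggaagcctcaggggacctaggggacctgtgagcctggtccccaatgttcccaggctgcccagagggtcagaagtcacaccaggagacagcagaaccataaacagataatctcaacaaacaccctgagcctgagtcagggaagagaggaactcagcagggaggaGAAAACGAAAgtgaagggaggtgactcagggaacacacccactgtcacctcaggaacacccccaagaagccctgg
In Trim30d and Ifi207 the match began 41 bases before the start, in Oas3 75 bases and in Rsad2 120 bases before it. A match of letters does not show that a factor binds there.

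Genes of the dividing cell were higher in A/J almost throughout. Of 24 measured cell cycle genes, 22 were called higher and 0 lower, 16 of them at least 2-fold, against 5.87% of all probe sets called higher. The median difference was 1.15. The list averaged 8.37 and 8.36 on the A/J arrays and 7.13, 6.79, 6.89, 7.49 and 7.46 on the C57BL/6J arrays. The A/J arrays were alike and above every C57BL/6J array, while the C57BL/6J arrays differed among themselves more. The sums given above, which overlapped between the strains, are of stem and progenitor cell markers and not of dividing granulocyte precursors. Of 10 azurophil granule genes, 1 was called higher (5.87% over all probe sets), Ms4a3 of early precursors (difference 0.94), and 9 were not called. The part of cell composition in the cell cycle difference was not tested. Leaving out A/J array 2 left 18 genes called. In the panel A/J ranked 10 and C57BL/6J 35 of 40 groups from the top, and the other groups ranged from 6.83 to 9.34, so the C57BL/6J mean lay near the bottom of the panel and the A/J mean in its upper part.

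Ccna2, the cyclin of S phase and mitotic entry, was at 10.10 and 9.98 on the A/J arrays and at 7.94, 6.84, 7.38, 8.57 and 8.54 on the C57BL/6J arrays. C57BL/6J array 2 was the lowest and arrays 4 and 5 the highest of their strain, and all 5 lay below both A/J arrays (difference 2.18, SE 0.29, adjusted p = 1.01e-07). Top2a, which untangles replicated DNA, was at 9.34 and 9.29 on the A/J arrays and at 7.72, 6.29, 6.49, 8.06 and 7.89 on the C57BL/6J arrays (difference 2.03, SE 0.34, adjusted p = 1.29e-05). The mitotic motor Kif11 was at 9.33 and 9.12 on the A/J arrays and at 7.43, 6.33, 6.76, 8.14 and 7.89 on the C57BL/6J arrays (difference 1.91, SE 0.31, adjusted p = 6.05e-06). Both showed the same order of C57BL/6J arrays, with array 2 lowest and array 4 highest. Mki67, the proliferation antigen, was at 10.01 and 10.17 in A/J and 7.59 to 8.84 in C57BL/6J (difference 1.79, SE 0.28, adjusted p = 4.59e-06). Other members, chosen after their values were seen, were the mitotic kinases Plk1 (difference 1.62, SE 0.23, adjusted p = 5.98e-07) and Aurkb (difference 1.60, SE 0.18, adjusted p = 2.05e-09), the cyclin-dependent kinase Cdk1 (difference 1.48, SE 0.29, adjusted p = 0.00022) and the replication clamp Pcna (difference 1.02, SE 0.24, adjusted p = 0.00169), for which the adjusted p was 0.0827 without A/J array 2. The 2 members not called were Mcm6 (difference 0.57, SE 0.20, adjusted p = 0.0636) and Mcm4 (difference 0.12, SE 0.16, adjusted p = 0.739), subunits of the replicative helicase whose other listed subunits were called higher, and Mcm6 had an adjusted p of 0.0388 without C57BL/6J array 3 and 0.0495 without array 4. Among 38 genes with a kinesin symbol, 11 were higher (5.87% over all probe sets), 9 of them at least 2-fold, and 1 lower.

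Replication-dependent histones, whose transcripts are made in S phase to package new DNA, were also higher. This list was drawn by gene symbol after values had been seen. Of 27 measured, 21 were called higher (5.87% over all probe sets) and 0 lower, 12 at least 2-fold higher (1.46%), with a median of 0.94. Their mean was 9.03 and 9.004 on the A/J arrays and 7.65, 7.59, 7.81, 7.95 and 7.99 on the C57BL/6J arrays. H2ac4, a core H2A gene, was at 9.65 and 9.68 on the A/J arrays and at 5.19, 4.60, 5.83, 6.24 and 6.70 on the C57BL/6J arrays. The C57BL/6J arrays spread over more than 2 log2 units and still did not reach A/J (difference 3.96, SE 0.47, adjusted p = 4.97e-09). H2bc3, a core H2B gene, was at 11.30 and 11.15 on the A/J arrays and at 7.81, 7.81, 8.59, 9.03 and 8.89 on the C57BL/6J arrays (difference 2.80, SE 0.30, adjusted p = 2.68e-10). H2bc18 was at 9.79 and 9.82 on the A/J arrays and at 7.14, 6.97, 7.73, 7.76 and 7.77 on the C57BL/6J arrays, a tighter pair of groups (difference 2.33, SE 0.20, adjusted p = 5.8e-13). The linker histone H1f5 was at 10.23 and 10.33 in A/J and 7.63 to 8.41 in C57BL/6J (difference 2.39, SE 0.25, adjusted p = 8.82e-11) and H4c6 at 10.70 and 10.99 in A/J and 8.07 to 9.09 in C57BL/6J (difference 2.19, SE 0.30, adjusted p = 2.76e-07). H2bc4, of high level in both strains, was at 11.45 and 11.52 in A/J and 10.97 to 11.51 in C57BL/6J and was not called (difference 0.28, SE 0.15, adjusted p = 0.262). Histone genes are near-identical copies, so single values are uncertain. The 16 probe sets that the annotation assigns to several histone genes, which name no gene, were all called higher, by 0.97 to 2.21.

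Promoters of H2B genes are known to carry an octamer bound by Oct-1, and 4 of the histone genes that were higher are shown for that reason. The octamer ATTTGCAT, searched on both strands of the 250 bases before the start, was found for 5 of 7 H2B genes with an entry (71.4%), for 3 of 16 other histone genes (18.8%) and for 1.81% of 27025 genes. Capitals mark the match, on the reverse strand in H2ac4.
H2bc3, chr13:23746484-23746733, plus strand: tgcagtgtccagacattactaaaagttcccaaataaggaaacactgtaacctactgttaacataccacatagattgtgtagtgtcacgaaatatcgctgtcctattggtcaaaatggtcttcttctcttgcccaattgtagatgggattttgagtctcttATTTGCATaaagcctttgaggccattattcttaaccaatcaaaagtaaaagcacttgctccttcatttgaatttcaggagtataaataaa
H2bc18, chr3:96269450-96269699, plus strand: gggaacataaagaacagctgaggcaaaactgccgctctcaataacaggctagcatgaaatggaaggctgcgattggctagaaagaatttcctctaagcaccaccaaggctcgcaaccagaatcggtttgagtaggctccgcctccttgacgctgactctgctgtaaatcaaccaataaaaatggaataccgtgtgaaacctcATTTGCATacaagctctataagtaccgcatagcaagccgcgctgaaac
H2bc14, chr13:21721794-21722043, plus strand: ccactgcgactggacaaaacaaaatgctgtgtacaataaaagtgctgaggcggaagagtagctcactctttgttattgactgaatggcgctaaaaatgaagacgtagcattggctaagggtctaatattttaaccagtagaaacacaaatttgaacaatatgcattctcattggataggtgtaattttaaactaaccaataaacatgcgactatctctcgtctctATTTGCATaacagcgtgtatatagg
H2ac4, chr13:23750838-23751087, plus strand: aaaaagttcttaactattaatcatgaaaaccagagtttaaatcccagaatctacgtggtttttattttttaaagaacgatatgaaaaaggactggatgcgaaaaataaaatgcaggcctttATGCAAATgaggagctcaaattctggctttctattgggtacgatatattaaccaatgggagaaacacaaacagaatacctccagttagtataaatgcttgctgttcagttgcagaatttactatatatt
The match began 90, 48, 25 and 129 bases before the start, in the order printed. The shorter letters TTTGAA, part of the element of many cell cycle promoters, were found for 7 of 20 cell cycle genes (35%) and for 18.3% of all genes. The searches were separate, and matches of TTTGAA may share letters with those of the interferon response element. H2bc14, the other H2B gene printed, was at 11.96 and 11.71 in A/J and 9.69 to 10.50 in C57BL/6J (difference 1.69, SE 0.22, adjusted p = 9e-08).

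Small nucleolar RNAs, guides for the modification and processing of ribosomal RNA, were also higher in A/J where they were called. This list too was drawn by symbol after values had been seen. Of 50 measured, 9 were called higher (5.87% over all probe sets), 7 at least 2-fold higher (1.46%), and 0 lower, with a median of 0.35. Snord118, the U8 RNA needed to mature 28S ribosomal RNA, was at 10.42 and 11.98 on the A/J arrays and at 6.38, 8.04, 6.68, 6.99 and 6.84 on the C57BL/6J arrays. A/J array 2 stood above array 1 and array 2 of C57BL/6J above the other 4, and the strains still did not overlap (difference 4.22, SE 0.52, adjusted p = 1.37e-08). Snord53 was at 10.26 and 10.37 in A/J and 8.32 to 8.64 in C57BL/6J (difference 1.86, SE 0.31, adjusted p = 1.05e-05).

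**Figure D2:**
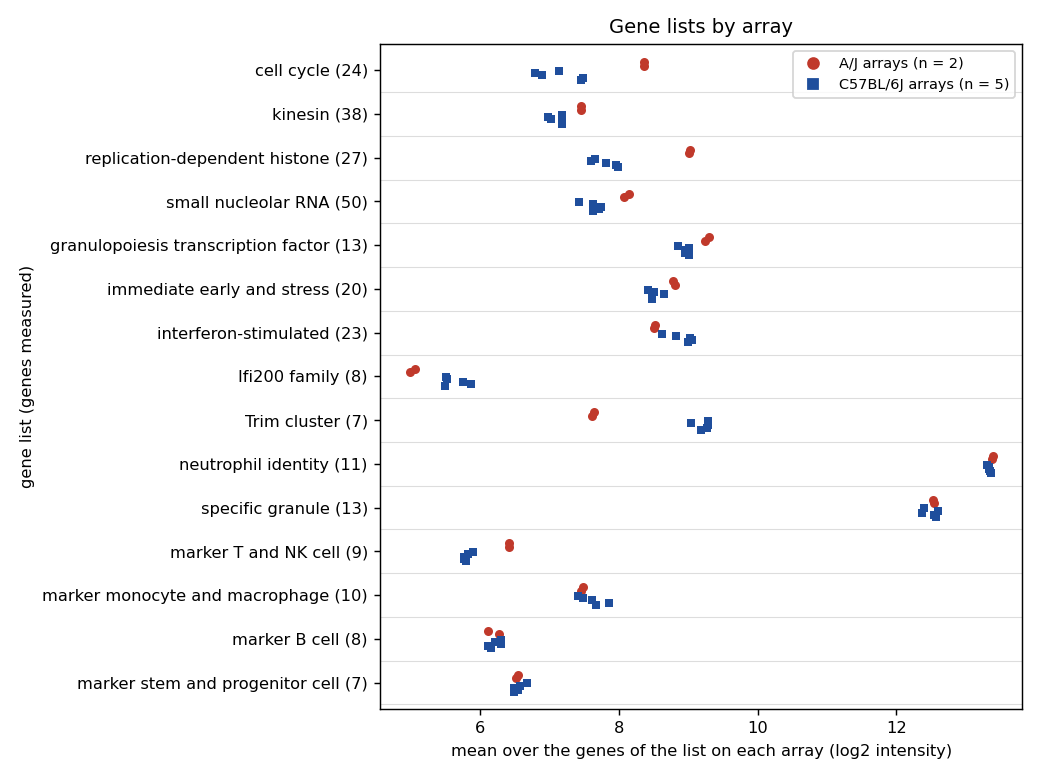
Mean level of each gene list (horizontal axis, log2 intensity) on every array, with the number of genes measured in brackets; red circles are the 2 A/J arrays and blue squares the 5 C57BL/6J arrays. Cell cycle genes (8.37 and 8.36 in A/J, at most 7.49 in C57BL/6J) and histones separate upwards in A/J and the Trim cluster downwards, whereas neutrophil markers lie at 13.31 to 13.40 in both strains.

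Outside these groups, the genes most reduced in A/J had varied roles. Olfml2b, a secreted olfactomedin-domain protein of the extracellular matrix, was at 6.37 and 6.27 on the A/J arrays and at 10.72, 11.19, 10.57, 10.81 and 10.97 on the C57BL/6J arrays. The difference of 23.2-fold was as tight as that of the Trim genes (difference -4.53, SE 0.13, adjusted p = 3.91e-32), and none of the other 38 groups had a mean between 6.94 and 10.38. Mrpl23, a protein of the mitochondrial ribosome, was at 6.95 and 7.23 on the A/J arrays and at 10.67, 10.94, 11.12, 11.11 and 10.75 on the C57BL/6J arrays (difference -3.83, SE 0.17, adjusted p = 3.49e-24). Its other probe set gave -3.74. Elovl7, an elongase of long-chain fatty acids, was at 6.76 and 6.17 in A/J and 9.98 to 10.13 in C57BL/6J (difference -3.62, SE 0.17, adjusted p = 9.45e-23), and Gm1966 at 7.15 and 7.05 in A/J and 10.17 to 10.73 in C57BL/6J (difference -3.31, SE 0.18, adjusted p = 4.93e-21). Ly6a2, of the Ly6 family of surface proteins, was abundant in both strains, at 10.48 and 10.45 on the A/J arrays and at 13.50, 13.52, 13.52, 13.56 and 13.65 on the C57BL/6J arrays (difference -3.08, SE 0.10, adjusted p = 5.59e-30). For it 27 of the other 38 groups lay nearer to C57BL/6J.

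Further genes among the 15 largest reductions were lower in A/J by 5-fold or more. Plekhg1, a pleckstrin-homology exchange factor, was at 6.68 and 6.74 in A/J and 9.57 to 9.89 in C57BL/6J (difference -3.07, SE 0.14, adjusted p = 3.37e-23). The cyclin-like Ccno, known from cells with many cilia, was at 7.03 and 6.67 in A/J and 9.20 to 10.00 in C57BL/6J (difference -2.82, SE 0.17, adjusted p = 4.88e-19), opposite in direction to the cell cycle genes. Pnpla1, a patatin-like acyltransferase, was at 6.60 and 6.56 in A/J and 8.79 to 9.67 in C57BL/6J (difference -2.78, SE 0.17, adjusted p = 1.01e-18), and Acvrl1, a receptor for bone morphogenetic proteins, at 7.06 and 7.17 in A/J and 9.04 to 9.97 in C57BL/6J (difference -2.61, SE 0.15, adjusted p = 5.23e-19). Crybg3 was at 6.47 and 5.80 in A/J and 8.50 to 8.77 in C57BL/6J (difference -2.49, SE 0.18, adjusted p = 1.98e-15). Ccdc180 was at 8.32 and 8.16 in A/J and 10.29 to 11.004 in C57BL/6J (difference -2.47, SE 0.16, adjusted p = 1.96e-17), but its probe sets disagreed: 1 other gave -2.18, the remaining ones, mostly dim, were not called, and their mean over the gene was -0.17 with an adjusted p of 0.141.

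Bst1 set A/J apart from every other strain. It encodes CD157, an ADP-ribosyl cyclase anchored on the surface of myeloid cells. It was at 9.06 and 8.62 on the A/J arrays and at 11.54, 11.50, 11.68, 11.47 and 11.41 on the C57BL/6J arrays (difference -2.68, SE 0.13, adjusted p = 1.03e-22). The other 38 groups ranged from 10.58 in MSM/Ms to 12.07 in RIIIS/J, so A/J lay 1.75 below the lowest of them. Slc28a1, a sodium-coupled nucleoside transporter, was the only gene with the reverse pattern, at 8.18 and 8.08 on the A/J arrays and at 7.11, 6.77, 6.66, 6.53 and 6.70 on the C57BL/6J arrays (difference 1.37, SE 0.12, adjusted p = 1.44e-12), against at most 7.09 in KK.Cg-Ay/J. By the same rule, a 2-fold call with a mean at least 1 beyond all 39 other groups, C57BL/6J had 0 genes in either direction.

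The largest increase of a named gene in A/J was that of an eosinophil-associated ribonuclease, a family of secreted antimicrobial RNases. Rnase2a was at 10.11 and 10.20 on the A/J arrays and at 4.93, 4.49, 4.46, 4.57 and 4.98 on the C57BL/6J arrays. The C57BL/6J arrays lay low, 44.4-fold below A/J (difference 5.47, SE 0.18, adjusted p = 6.74e-30), and 32 of the other 38 groups lay nearer to A/J. Of 4 ribonucleases measured, family members listed together with Rnase6, 3 were higher, against 5.87% of all probe sets. Rnase6 was at 9.26 and 9.48 on the A/J arrays and at 7.05, 6.94, 7.61, 7.66 and 7.32 on the C57BL/6J arrays (difference 2.06, SE 0.18, adjusted p = 8.52e-13) and Ear6 at 7.88 and 7.32 in A/J and 6.63 to 6.90 in C57BL/6J (difference 0.81, SE 0.15, adjusted p = 0.000112), the latter not called without A/J array 1 (0.53, adjusted p = 0.0788). Rnase2b was at 5.32 and 5.12 in A/J and 4.71 to 5.09 in C57BL/6J and was not called (difference 0.30, SE 0.13, adjusted p = 0.17). Of 6 eosinophil markers only Prg2, the major basic protein, was called, at 6.64 and 6.57 in A/J and 6.10 to 6.32 in C57BL/6J (difference 0.38, SE 0.11, adjusted p = 0.0129), and it was not called without A/J array 1 (adjusted p = 0.144) or array 2 (0.0996).

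Other genes 7-fold or more higher in A/J are described next. Abcc3, an exporter of conjugated organic anions, was at 10.32 and 10.10 on the A/J arrays and at 6.68, 6.88, 6.96, 6.96 and 6.92 on the C57BL/6J arrays (difference 3.33, SE 0.13, adjusted p = 1.43e-26). Drd2, the dopamine D2 receptor, was at 9.81 and 9.52 on the A/J arrays and at 6.43, 6.64, 6.35, 6.16 and 6.40 on the C57BL/6J arrays (difference 3.27, SE 0.12, adjusted p = 1.25e-27). Only 3 of the other 38 groups lay nearer to A/J for Drd2 and 9 for Abcc3. Cd93, a lectin-like receptor of myeloid and endothelial cells, was at 11.17 and 11.07 on the A/J arrays and at 8.03, 7.94, 8.16, 8.49 and 8.25 on the C57BL/6J arrays (difference 2.95, SE 0.15, adjusted p = 7.8e-22), again with 9 groups nearer to A/J. Slc9a3r2, a scaffold that tethers membrane transporters, was at 10.80 and 10.54 in A/J and 7.72 to 7.92 in C57BL/6J (difference 2.85, SE 0.11, adjusted p = 1.3e-26).

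Cd3d, the delta chain of the T cell receptor complex, was at 10.13 and 10.10 on the A/J arrays and at 6.70, 6.86, 6.61, 7.11 and 6.87 on the C57BL/6J arrays. The A/J level was 9.75-fold higher (difference 3.28, SE 0.16, adjusted p = 1.84e-22), and 27 of the other 38 groups lay nearer to A/J than to C57BL/6J. Of the other T and NK cell markers Cd3g, the gamma chain encoded beside it, was higher (difference 1.12, SE 0.22, adjusted p = 0.000167), as was Nkg7 (difference 0.89, SE 0.17, adjusted p = 8.95e-05), and 6 of 9 were not called, Cd3e among them. The share of T cells in the sorted pools was not tested. Fah, the last enzyme of tyrosine breakdown, was at 8.90 and 8.69 in A/J and 5.56 to 6.62 in C57BL/6J (difference 2.55, SE 0.16, adjusted p = 5.56e-18), and Ugt8a, which makes galactosylceramide, at 8.35 and 8.28 in A/J and 5.68 to 6.03 in C57BL/6J (difference 2.47, SE 0.16, adjusted p = 2.31e-17).

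**Figure D3:**
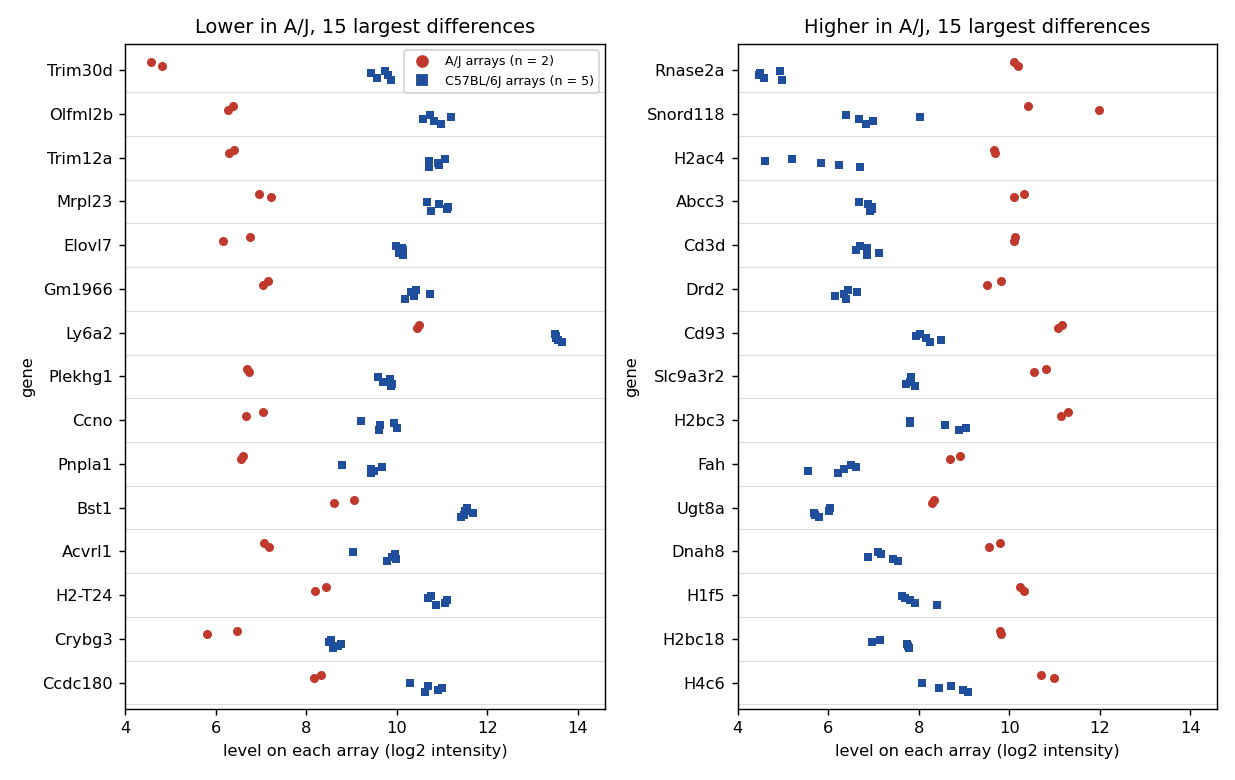
Level on each array (horizontal axis, log2 intensity) for the 15 genes most reduced (left) and most raised (right) in A/J; red circles are the 2 A/J arrays and blue squares the 5 C57BL/6J arrays. The genes were chosen among those whose arrays do not overlap, and run from Trim30d (4.57 and 4.80 against 9.42 to 9.86) to Rnase2a (10.11 and 10.20 against 4.46 to 4.98).

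Sensors of bacteria differed in both directions. Naip5 and Naip6 encode inflammasome receptors, and Naip5, which recognises flagellin, underlies the Legionella susceptibility of A/J. Naip5 was at 7.81 and 7.73 on the A/J arrays and at 8.93, 9.04, 9.11, 9.33 and 9.26 on the C57BL/6J arrays (difference -1.36, SE 0.14, adjusted p = 5.16e-11), and Naip6 at 7.33 and 7.05 on the A/J arrays and at 8.44, 8.66, 8.54, 8.89 and 8.88 on the C57BL/6J arrays (difference -1.495, SE 0.19, adjusted p = 6.16e-08). Both genes were lower in A/J without overlap, and for each 32 of the other 38 groups lay nearer to A/J. As near-identical paralogues they may share probe signal. Casp4, the caspase that senses cytosolic lipopolysaccharide, was at 8.78 and 8.35 in A/J and 9.20 to 9.61 in C57BL/6J (difference -0.82, SE 0.12, adjusted p = 1.35e-06). Of 17 measured inflammasome genes 5 were lower (5.53% over all probe sets) and 1 higher (5.87%), the cytokine Il1b at 11.62 and 11.60 in A/J and 10.15 to 11.27 in C57BL/6J (difference 0.88, SE 0.23, adjusted p = 0.00624). Il1b was not called without A/J array 1 (adjusted p = 0.0659) or array 2 (0.0968).

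Of 19 genes of Toll-like receptors, their co-receptors and partner proteins 3 were called, all higher in A/J. Of all probe sets 11.4% were called in either direction. Cd14, the lipopolysaccharide co-receptor, was at 8.05 and 8.13 on the A/J arrays and at 6.35, 6.88, 6.58, 6.54 and 6.64 on the C57BL/6J arrays (difference 1.49, SE 0.23, adjusted p = 2.53e-06). A/J lay well above C57BL/6J, and 27 of the other 38 groups lay nearer to A/J. Tlr1 (difference 0.70, SE 0.15, adjusted p = 0.000739) and Tlr6 (difference 0.60, SE 0.14, adjusted p = 0.00252), partners of Tlr2, were higher by less than 2-fold, Tlr6 without a call when A/J array 1 was left out (adjusted p = 0.0526). Tlr4 was at 9.60 and 9.22 in A/J and 8.75 to 9.24 in C57BL/6J and overlapped (difference 0.36, SE 0.16, adjusted p = 0.153).

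Of 11 chemoattractant receptors, 2 were higher (5.87% over all probe sets) and 1 lower (5.53%): P2ry2, the nucleotide receptor that amplifies chemotaxis, was at 9.33 and 9.13 on the A/J arrays and at 8.03, 8.36, 8.44, 7.93 and 8.19 on the C57BL/6J arrays (difference 1.04, SE 0.14, adjusted p = 1.56e-07), and Cxcr1 at 6.79 and 6.76 in A/J and 7.24 to 7.89 in C57BL/6J (difference -0.75, SE 0.13, adjusted p = 4.09e-05). Among 20 inhibitory, activating and Fc receptors 1 was higher and 2 lower. The inhibitory Fc receptor Fcgr2b was higher at 10.74 and 10.75 in A/J and 9.89 to 10.19 in C57BL/6J (difference 0.67, SE 0.10, adjusted p = 1.24e-06). Cd300ld, an activating receptor, was lower at 10.65 and 10.43 in A/J and 11.74 to 12.09 in C57BL/6J (difference -1.35, SE 0.17, adjusted p = 1.9e-08), as was Pirb, a receptor for class I molecules, at 12.29 and 12.09 in A/J and 12.49 to 12.62 in C57BL/6J (difference -0.36, SE 0.09, adjusted p = 0.00247), the latter not called without A/J array 2 (adjusted p = 0.273). Of 12 C-type lectins 2 were higher and 2 lower, beside 5.87% and 5.53% of all probe sets. Clec2d was at 11.49 and 11.46 in A/J and 9.94 to 10.83 in C57BL/6J (difference 0.87, SE 0.17, adjusted p = 0.000144), Clec4n, or dectin-2, at 6.98 and 6.89 in A/J and 5.34 to 6.22 in C57BL/6J (difference 1.11, SE 0.21, adjusted p = 0.000131) and Clec1b at 7.72 and 7.49 in A/J and 8.14 to 8.74 in C57BL/6J (difference -0.85, SE 0.19, adjusted p = 0.00132, and 0.0995 without A/J array 2). Of 13 adhesion genes the beta-2-like integrin Itgb2l was the largest change, at 10.86 and 10.72 on the A/J arrays and at 11.95, 12.14, 11.98, 12.15 and 12.12 on the C57BL/6J arrays (difference -1.28, SE 0.11, adjusted p = 6.35e-13).

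Some regulators of the granulocyte lineage were higher in A/J. Of 13 measured transcription factors of granulopoiesis, 5 were called higher, against 5.87% of all probe sets, and 0 lower, with a median of 0.28. A/J had the highest list mean of the 40 groups (9.30 and 9.24 on its arrays) and C57BL/6J rank 38 (8.85 to 9.02). Id2, an inhibitor of E proteins, was at 12.15 and 12.08 on the A/J arrays and at 11.29, 11.21, 11.11, 11.32 and 11.27 on the C57BL/6J arrays (difference 0.87, SE 0.11, adjusted p = 1.62e-08). Cebpb, which drives emergency granulopoiesis, was at 9.03 and 8.995 on the A/J arrays and at 8.01, 8.31, 8.27, 8.25 and 8.49 on the C57BL/6J arrays (difference 0.75, SE 0.17, adjusted p = 0.001), and Gfi1, a repressor required for neutrophils, at 8.18 and 8.19 in A/J and 7.54 to 7.82 in C57BL/6J (difference 0.49, SE 0.10, adjusted p = 0.000584). Immediate early and stress genes had 6 of 20 higher (5.87% over all probe sets) and 1 lower (5.53%), among them Ier2 (difference 0.82, SE 0.17, adjusted p = 0.000384), Junb (difference 0.81, SE 0.17, adjusted p = 0.000673) and the phosphatase Dusp1 (difference 0.93, SE 0.23, adjusted p = 0.00346, not called without A/J array 1 at an adjusted p of 0.0873). Fos was at 8.73 and 8.60 in A/J and 7.19 to 8.11 in C57BL/6J and missed the threshold (difference 1.07, SE 0.37, adjusted p = 0.051), which it passed without C57BL/6J array 3 (0.0328) or array 4 (0.0394).

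Granule and maturation genes are set here against the 11.4% of all probe sets that were called. Of 10 azurophil granule genes 1 was called, Ms4a3 of early precursors, at 6.64 and 7.13 in A/J and 5.77 to 6.09 in C57BL/6J (difference 0.94, SE 0.20, adjusted p = 0.000494, and 0.137 without A/J array 2). Of 13 specific granule genes 3 were called: the acute-phase protein Orm1 (difference 1.05, SE 0.23, adjusted p = 7e-04, and 0.0684 without A/J array 2) and the cathelicidin Camp (difference 0.42, SE 0.09, adjusted p = 0.000619) were higher, and the chitinase-like Chil3 (difference -0.59, SE 0.16, adjusted p = 0.00926, and 0.155 and 0.0558 without A/J arrays 1 and 2) was lower. Olfm4 was at 12.25 and 12.15 in A/J and 11.76 to 12.02 in C57BL/6J and was not called (difference 0.30, SE 0.10, adjusted p = 0.051), but was called without C57BL/6J array 2 (0.0347). Of 14 genes of mature neutrophils, Ccrl2, a chemerin-binding receptor, was at 8.55 and 8.08 on the A/J arrays and at 6.11, 6.47, 6.25, 6.08 and 6.32 on the C57BL/6J arrays (difference 2.07, SE 0.26, adjusted p = 1.88e-08), and the decoy receptor Il1r2 at 10.41 and 10.28 in A/J and 10.55 to 11.06 in C57BL/6J (difference -0.54, SE 0.14, adjusted p = 0.00714, and 0.208 without A/J array 2). The oxidase subunit Ncf4 was the 1 called of 5, at 12.18 and 12.16 in A/J and 11.50 to 11.89 in C57BL/6J (difference 0.42, SE 0.10, adjusted p = 0.00178). Of 8 stefins and antiproteases 2 were higher (5.87% over all probe sets). The cysteine protease inhibitors Stfa2, at 10.60 and 10.43 in A/J and 8.48 to 9.38 in C57BL/6J (difference 1.41, SE 0.23, adjusted p = 8.99e-06), and Stfa3, at 8.85 and 8.74 in A/J and 7.36 to 7.98 in C57BL/6J (difference 1.13, SE 0.21, adjusted p = 9.1e-05), were higher. They are near-identical copies and may share signal.

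Of 11 eicosanoid enzymes 3 were called, and of 18 glutathione and redox genes 2, beside 11.4% of all probe sets. Alox15, a lipoxygenase of arachidonic and linoleic acid, was at 7.74 and 7.27 on the A/J arrays and at 6.38, 6.31, 6.10, 6.11 and 6.23 on the C57BL/6J arrays (difference 1.28, SE 0.17, adjusted p = 1.17e-07), and Pla2g4a, the phospholipase that releases arachidonic acid, at 8.72 and 8.69 on the A/J arrays and at 9.77, 9.54, 9.55, 9.75 and 9.52 on the C57BL/6J arrays (difference -0.92, SE 0.16, adjusted p = 2.7e-05). The first was higher in A/J and the second lower, without overlap. Pla2g7, the platelet-activating factor hydrolase, was also higher (difference 0.55, SE 0.14, adjusted p = 0.00362, and 0.092 without A/J array 2), and the other 8 of 11 genes were not called. Of the redox genes Nnt, the mitochondrial transhydrogenase, was higher, and Gsr, glutathione reductase, was lower at 11.67 and 11.78 on the A/J arrays and at 12.49, 12.41, 12.46, 12.49 and 12.35 on the C57BL/6J arrays (difference -0.71, SE 0.08, adjusted p = 5.76e-09), with a gap wider than the spread of either strain. The cytokine receptor list had 3 higher and 2 lower of 22 (5.87% and 5.53% over all probe sets), among them Ifnar2, a chain of the type I interferon receptor, higher at 11.83 and 11.81 in A/J and 11.20 to 11.38 in C57BL/6J (difference 0.53, SE 0.08, adjusted p = 3.82e-06). Csf1r, the receptor of macrophage colony-stimulating factor, was at 10.52 and 10.53 in A/J and 9.75 to 10.31 in C57BL/6J (difference 0.55, SE 0.14, adjusted p = 0.00505) but without a call when A/J array 1 (0.0542) or array 2 (0.094) was left out. The macrophage marker Adgre1 was lower at 7.54 and 7.28 in A/J and 8.61 to 9.36 in C57BL/6J (difference -1.45, SE 0.18, adjusted p = 2.8e-08), and summed intensities of the 10 monocyte and macrophage markers overlapped, at 3630 and 3489 against 2901 to 4056.

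Genes of the major histocompatibility region, where the strains carry different haplotypes, formed the one long stretch of neighbouring differences. A long stretch had at least 4 2-fold calls, with at most 2 other measured genes between consecutive calls, and shorter runs were not counted. The stretch in this region held 5 2-fold calls among 9 measured genes in reference order: Wdr46 and Rps18 were higher in A/J, and H2-K2, AA388235 and H2-Ke6 lower. Wdr46, a nucleolar protein, was at 8.63 and 8.38 in A/J and 6.64 to 7.30 in C57BL/6J (difference 1.41, SE 0.13, adjusted p = 4.16e-12), and Rps18, of the small ribosomal subunit, at 9.95 and 10.23 in A/J and 8.12 to 8.95 in C57BL/6J (difference 1.44, SE 0.22, adjusted p = 2.77e-06). The other probe sets of Rps18, which has many processed copies, gave 0.88 to 1.37. H2-K2, a class I gene, was at 6.43 and 6.78 on the A/J arrays and at 8.09, 8.74, 9.05, 9.21 and 8.84 on the C57BL/6J arrays (difference -2.18, SE 0.19, adjusted p = 3.09e-13). H2-Ke6, a steroid dehydrogenase, was at 7.98 and 8.16 in A/J and 8.88 to 9.51 in C57BL/6J (difference -1.24, SE 0.15, adjusted p = 4.58e-09) and AA388235 at 4.90 and 5.29 in A/J and 6.05 to 6.76 in C57BL/6J (difference -1.35, SE 0.13, adjusted p = 1.73e-11). The class I list of 13 measured genes also held B2m, Tap1, Tap2, Tapbp, Psmb8 and Psmb9, which encode no class I heavy chain. Of the 13, 1 was called higher (5.87% over all probe sets), Psmb9, by less than 2-fold, and 2 were lower past 2-fold (0.65%). The lower ones were the non-classical H2-T24 at 8.43 and 8.19 on the A/J arrays and at 10.76, 10.68, 11.11, 11.06 and 10.87 on the C57BL/6J arrays (difference -2.59, SE 0.15, adjusted p = 1.44e-19) and H2-Q10 at 6.51 and 6.34 in A/J and 8.61 to 9.22 in C57BL/6J (difference -2.44, SE 0.16, adjusted p = 2.68e-17). Class I genes are alike in sequence and differ between haplotypes, which bears on probe signal. None of 10 class II genes was called, beside 11.4% of all probe sets, and a list this short cannot show a lower share.

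Across the genome, 45 of 296 2-fold genes (15.2%) had another 2-fold gene as a direct neighbour, and 532 of the 19381 other genes (2.7%) did. The neighbourhood of Glo1 was one example. Glo1, the glyoxalase that detoxifies methylglyoxal, was at 8.29 and 8.37 on the A/J arrays and at 6.43, 6.75, 6.34, 6.71 and 6.64 on the C57BL/6J arrays (difference 1.76, SE 0.15, adjusted p = 6.15e-13), and its other probe set gave 1.94. Dnah8, an axonemal dynein chain beside it, was at 9.78 and 9.54 on the A/J arrays and at 7.09, 7.15, 6.87, 7.43 and 7.55 on the C57BL/6J arrays (difference 2.45, SE 0.12, adjusted p = 3.75e-22). Both were higher in A/J without overlap, whereas Btbd9 (difference 0.25, SE 0.09, adjusted p = 0.0639) and Glp1r (difference 0.11, SE 0.12, adjusted p = 0.688), which flank the pair, were not called, although Btbd9 was called without C57BL/6J array 3 (0.0394) or array 4 (0.0367).

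Of 10 measured genes with a known variant in one of the strains, 2 were higher in A/J, 2 lower and 6 not called, beside 11.4% of all probe sets called. Nnt, which has a deletion in C57BL/6J, was at 9.85 and 9.78 on the A/J arrays and at 9.08, 8.99, 9.25, 9.25 and 9.13 on the C57BL/6J arrays (difference 0.67, SE 0.12, adjusted p = 5.78e-05), lower in C57BL/6J on each array. Apobec3, an antiretroviral deaminase, was at 7.74 and 7.68 on the A/J arrays and at 8.60, 8.78, 9.24, 9.04 and 9.09 on the C57BL/6J arrays (difference -1.24, SE 0.14, adjusted p = 1.04e-09), and its other probe set gave -0.39. Hc, the gene of complement C5, was at 6.03 and 6.15 in A/J and 6.02 to 6.14 in C57BL/6J, and Dysf, the muscle protein lost in A/J, at 6.35 and 6.44 in A/J and 6.06 to 6.43 in C57BL/6J. Both lay low in these cells with overlapping arrays (adjusted p = 0.966 and 0.321). The pigment genes Tyr (difference 0.05, SE 0.10, adjusted p = 0.832) and Tyrp1 (difference 0.04, SE 0.11, adjusted p = 0.886) were at similarly low levels, and H2-Ea (difference 0.27, SE 0.13, adjusted p = 0.218) and Ifi202b (difference 0.17, SE 0.12, adjusted p = 0.436) were not called.

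Y-linked probe sets differed in both directions. Of 21 with a single gene symbol 11 were higher in A/J (5.87% over all probe sets), each at least 2-fold (1.46%). The median difference of the 21 was 1.11, and 2 were called lower (5.53%). Among the latter Eif2s3y, a translation initiation factor, was at 8.77 and 9.36 on the A/J arrays and at 10.45, 9.87, 10.31, 10.17 and 10.16 on the C57BL/6J arrays (difference -1.13, SE 0.19, adjusted p = 2.05e-05), lower in A/J on both arrays. The histone demethylase Kdm5d was at 7.43 and 7.31 in A/J and 7.68 to 8.28 in C57BL/6J (difference -0.58, SE 0.14, adjusted p = 0.00302, and 0.125 without A/J array 2), and Uty at 7.39 and 7.19 in A/J and 7.68 to 8.08 in C57BL/6J, short of the threshold (difference -0.61, SE 0.22, adjusted p = 0.0596), which it passed without C57BL/6J array 2 (0.0443). Probe sets assigned to several genes that all lie on the Y chromosome in the reference were also mostly higher. Of these, 39 of 42 were called higher in A/J (5.87% over all probe sets), 34 at least 2-fold (1.46%), and 0 lower. Their means were low, between 5.11 and 7.56 in A/J and 4.01 and 6.02 in C57BL/6J for those past 2-fold. Such families are present in many copies, and the probe sets name no single gene.

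Among probe sets without a single gene name 6 differed at least 8-fold, all lower in A/J. The largest, probe set 10410386, which the annotation leaves unnamed, was at 5.94 and 5.03 on the A/J arrays and at 12.32, 12.10, 12.52, 12.22 and 12.24 on the C57BL/6J arrays. Its difference of -6.80 (SE 0.41, adjusted p = 7.26e-19) was the widest of all 24922.

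The other strains show how far each difference is shared. At the median 2-fold gene, 22 of the other 38 groups lay nearer to A/J than to C57BL/6J, with 192 genes where most groups sided with A/J and 92 where most sided with C57BL/6J. The share of the 296 genes nearer to A/J was 78.4% in MRL/MpJ, 77% in AKR/J and the arrays titled Balb, and 76.7% in NON/ShiLtJ, the highest 4. It was lowest at 13.5% in the arrays titled C57BR, followed by 30.1% in JF1/Ms. C57BL/10J, a close relative of C57BL/6J, was at 38.5%. For 4 genes all 38 groups lay nearer to C57BL/6J, and for 0 all lay nearer to A/J. Against the unweighted mean of the other 38 groups, 149 probe sets differed at least 2-fold in A/J (0.598%) and 145 in C57BL/6J (0.582%). These contrasts share arrays with the comparison above and are given side by side. For Rnase2a, A/J minus the other groups was 0.92 and C57BL/6J minus the other groups -4.55. For Drd2 the same values were 3.03 and -0.24, and for Bst1 -2.59 and 0.09. For Trim30d they were -1.70 and 3.29. The A/J count was 88 without A/J array 2 and 328 without A/J array 1.

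**Figure D4:**
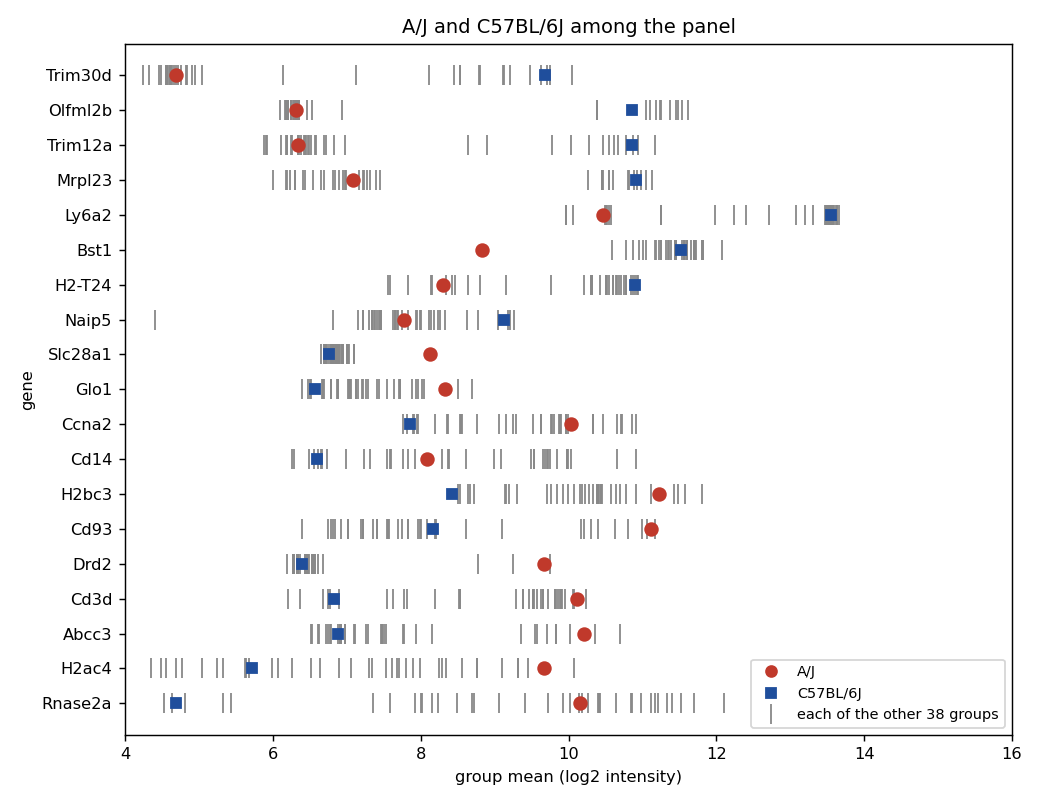
Group means (horizontal axis, log2 intensity) of 19 genes in A/J (red circles), C57BL/6J (blue squares) and each of the other 38 groups (grey ticks). Bst1 and Slc28a1 place A/J outside all ticks (8.84 against 10.58 to 12.07, and 8.13 against at most 7.09), whereas genes such as Olfml2b and Mrpl23 fall into separate low and high sets of groups.

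**Figure D5:**
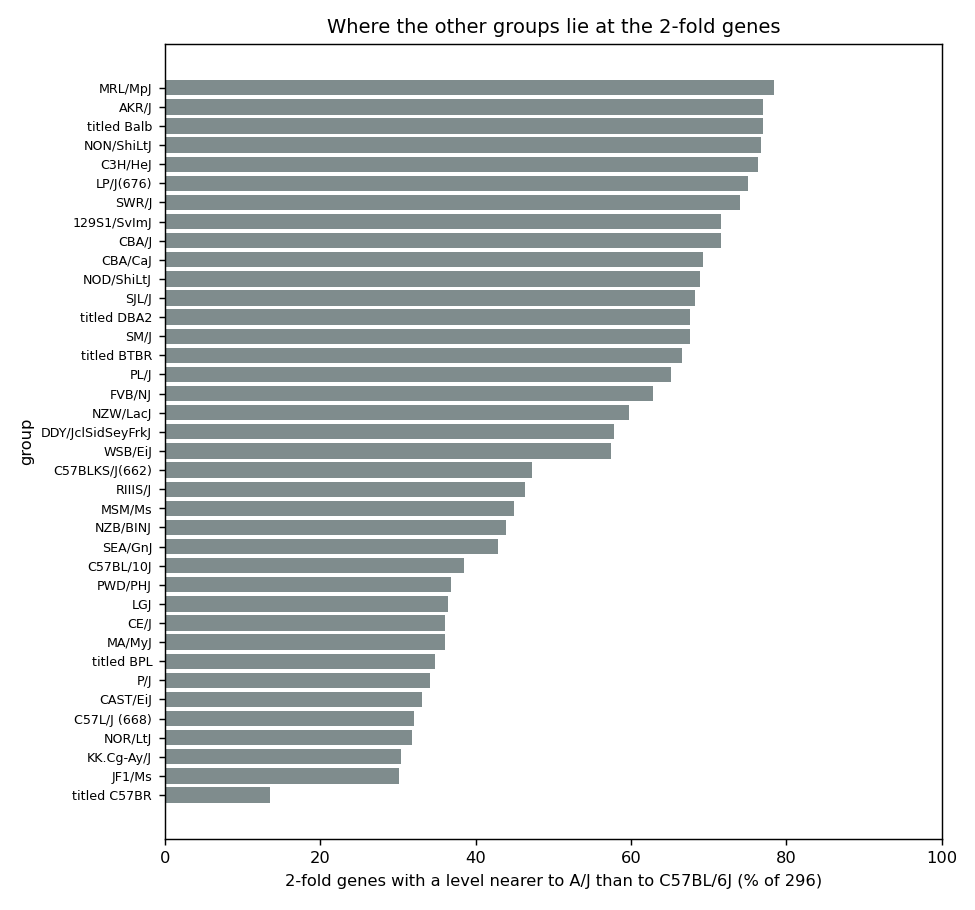
Share of the 296 2-fold genes (horizontal axis, percent) at which the mean of each of the other 38 groups (vertical axis) lay nearer to A/J than to C57BL/6J. The shares run from 13.5% in the arrays titled C57BR to 78.4% in MRL/MpJ.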

How the data were processed

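Total RNA of sorted granulocytes was hybridised to Affymetrix ST1.0 arrays, 81 in all. The authors deposited normalised intensity values on a linear scale, and per the submitters' processing notes Affymetrix Power Tools and RMA were used, while the genome build was not given in the sources used here and no version was named. RMA includes a normalisation between arrays, which can hide shifts shared by all genes. Values were converted to log2 here, with the deposited intensity otherwise unchanged. A model of 40 groups over 81 arrays was fitted with limma 3.58.1 in R 4.3.3, with Benjamini-Hochberg adjustment over 24922 probe sets, a threshold of 0.05 and 2-fold calls at a log2 difference of 1. Sharing the spread over groups gave 41 residual degrees of freedom. The script was tested on simulated data. Array number limits precision, and the labels do not say whether pools shared litters. The p-values measure the spread between pools within groups, shared over all 40 groups, and not that of the 7 arrays alone. A fit to the 7 arrays alone called 2166 probe sets.

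Gene names came from the platform annotation: 21425 probe sets had 1 symbol, 1399 several and 2098 none, and the brightest probe set stood for a gene. Named genes were the 15 largest non-overlapping 2-fold differences in each direction with a level of at least 7. Also named were up to 4 members of each list, taken by size of difference, members of the neighbouring stretch and genes apart from all other groups. Members and lists were chosen with earlier results of these data known, the histone, small nucleolar RNA and kinesin lists after values were seen, and Oas3, Plk1, Aurkb, Cdk1, Pcna, Mcm4, Mcm6, H2bc4 and H2bc14 likewise. Alternatives were quantile normalisation, a common array median, a pseudocount of 32, a minimum level of 7, a trended and robust prior, the 7 arrays alone, a replicate block, the mean over a gene's probe sets, the panel without the 10 arrays with conflicting labels, and leaving out each array. Promoter sequences came from RefSeq tables.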

Additional observations from a re-analysis of the deposited data

Results flagged for a closer look

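In 4 of 127 named genes (3.1%) 1 of the 5 C57BL/6J arrays lay far from the other 4 by Dixon's test, which chance alone would give in about 1 of 20 groups. C57BL/6J array 1 was low for Pnpla1 (8.79), Acvrl1 (9.04) and Clec2d (9.94). C57BL/6J array 3 was high for Tlr1 (5.43). A/J, with 2 arrays, could not be examined in this way.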

How the results depend on the processing

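Of the 108 named genes that were called, 82 kept their call and direction in all of the 16 alternatives that gave them a value and 26 lost the call in at least 1. The count of 2-fold higher probe sets was 204 with a pseudocount of 32 and 200 when dim probe sets, with an average under 7, were left out, and A/J against the other 38 groups gave 73 and 79. C57BL/6J against the other groups gave 93 with that pseudocount. Leaving out 1 array at a time gave 1053 to 2994 probe sets called, 561 to 1505 higher, 492 to 1489 lower, 223 to 473 higher by 2-fold and 149 to 198 lower by 2-fold. It gave 88 to 328 for A/J against the other groups and 125 to 167 for C57BL/6J, 2 to 10 interferon-stimulated, 18 to 23 cell cycle and 18 to 21 histone genes. The lowest number of probe sets called came without A/J array 2. The replicate block gave 1906 probe sets called, 721 of them lower, and 5 interferon-stimulated genes. Replicate numbers share no stated origin, and same-numbered arrays correlated in their deviations at -0.14 and 0.18, so they were not treated as pairs. Uncalled differences that changed sign were those of Hc (-0.047 after quantile normalisation, -0.034 at a common array median), Tyr (-0.0085 after quantile normalisation) and Tyrp1 (-0.012 and -0.0041). With 1 array left out in turn, Hc ranged from -0.045 to 0.067, Tyr from -0.078 to 0.18, Tyrp1 from -0.057 to 0.14, Mcm4 from -0.0067 to 0.24 and Glp1r from -0.037 to 0.25. The cause of these shifts was not tested. With 2 A/J arrays, differences under 2-fold rest on each of them.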
